A study of Homo sapiens with 4 samples.

Results

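Clade B serpins and SERPINA3 were followed across 4 cultures of MCF10A, an established, non-tumorigenic human mammary epithelial cell line, to see how transcripts of these protease inhibitors differed with forms of the coactivator YAP. The genes asked for were SERPINB1, SERPINB2, SERPINB3, SERPINB4, SERPINB5, SERPINB7, SERPINB8, SERPINB13 and SERPINA3. A member counted where a probe set carried its symbol and no other. This gave 8 of the 9 genes and 19 of 54613 probe sets, and SERPINB2 was not analysed here because no probe set was annotated to it. Where a gene had several probe sets, the one with the highest mean intensity is called the main one.

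Retrovirus from the pQCXIH vector was used to infect each culture; it was empty in the control (vector) and carried either the wild-type protein (YAP-WT) or the mutants YAP-S94A and YAP-W1W2 in the others. S94A changes a residue that YAP needs to bind TEAD transcription factors, and W1W2 alters both WW domains, through which YAP contacts proline-rich motifs. All 4 cultures grew in medium with 5% horse serum, 20 ng/ml epidermal growth factor, 0.5 μg/ml hydrocortisone, 10 μg/ml insulin and 100 ng/ml cholera toxin. There was 1 Affymetrix array per group, so no value has a replicate, no test was possible, and every difference is between 2 arrays. The labels do not say whether a culture was a pool or a clone. YAP1 was not raised in YAP-WT by its main probe set, which read 4085.5 in vector, 3461.5 in YAP-WT, then 4208.4 in YAP-S94A and 4657.0 in YAP-W1W2. The second YAP1 probe set read 3567.7, 3908.4, 4284.6 and 3953.5 on these arrays in turn, and the third 1024.8, 871.8, 1552.2 and 1471.9. Their position relative to the constructs was not tested.

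Serpins are protease inhibitors that act once: the protease cuts a loop of the serpin, the serpin refolds, and the protease stays trapped on it. Clade B members lack a classical secretion signal and work mainly inside cells or after release, and many are made by stratified and glandular epithelia. SERPINA3 belongs to the secreted clade A and is an acute phase protein. In the RefSeq gene order, 10 clade B genes lie in 1 run on chromosome 18, of which 7 are members. SERPINB1 lies on chromosome 6, near SERPINB9 and SERPINB6, and SERPINA3 on chromosome 14.

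The values below are deposited array intensities, on a linear scale without units. Intensities under 72.9, the 40th percentile over all arrays, were raised to that floor, so a fold that has the floor on 1 side states only the least that the difference can be. A difference of at least 2-fold is counted as higher or lower. As background, the same count was made over the 12759 genes whose mean intensity reached 113.6, called measured. Of the 8 members, 7 were measured and SERPINB4 was not. The basal keratins KRT5 and KRT14 read 30481.6 to 39724.1 over the arrays. The 4 epithelial markers were not steady: they summed to 15860 on the vector array and to between 32380 and 62620 on the YAP arrays. Of these, E-cadherin (CDH1) read 5238.7 to 11039.0 and stayed within 2-fold of vector. EPCAM rose from 578.2 with vector to between 1215.6 and 3440.4 on the YAP arrays, and the keratin KRT8 from 3844.7 to between 7012.2 and 16277.0. KRT18, also on this list, is given below. Of 4 leukocyte markers with a probe set, 1 or 2 were above the floor on an array, and their summed intensity ran from 223.6 to 453.5. The fibroblast markers, 6 of 6 with a probe set, summed to 777.4 to 1423, with 3 or 4 above the floor. The endothelial markers, 4 of 4 with a probe set, summed to 579.3 to 866.9, with 1 or 2 above the floor. The leukocyte antigen PTPRC read 21.7 to 74.6. The 4 luminal hormone-receptor markers summed to 2987 in vector, 7462 in YAP-WT, then 2026 in YAP-S94A and 5152 in YAP-W1W2. Most of this was the luminal factor GATA3, at 2679.1, 7108.3, 1458.2 and 4722.6, while FOXA1 read 125.7 to 348.9, the estrogen receptor ESR1 79.4 to 166.6 and the progesterone receptor PGR 52.8 to 103.2. The ratio of 3′ to 5′ control probe sets, a sign of RNA integrity, was 0.961 to 1.04 for GAPDH, and for actin 1.16, 1.07, 1.01 and 0.964 on the arrays in the same order.

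SERPINA3, SERPINB13 and SERPINB3 were each at least 2-fold lower in every YAP array than in vector by their main probe sets. By the main probe sets, SERPINB1 was at least 2-fold higher in both mutants, SERPINB7 was highest in YAP-WT, and SERPINB5, SERPINB7 and SERPINB8 stayed within 2-fold of vector. In such bulk RNA, fewer cells that make a transcript and less transcript per cell cannot be told apart. In YAP-WT against vector, 3 members were lower, where 4.95% of measured genes were, and 0 were higher, where 9.11% were. In YAP-S94A against vector, 3 were lower (background 6.53%) and 1 was higher (10.3%). In YAP-W1W2 against vector, 3 were lower (8.4%) and 1 was higher (11.4%). SERPINB4 could not be counted, and with the 7 measured members a count of 1 is near the background. These 3 comparisons share the vector array. The members, and the gene lists below, were chosen with earlier results of these data known, so their counts beside the background are a description only. The median log2 difference of the 7 measured members was −0.52 in YAP-WT, against −0.60 in YAP-S94A and −0.55 in YAP-W1W2, where the median of all measured genes was 0.14, 0.15 and 0.10.

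**Figure D1:**
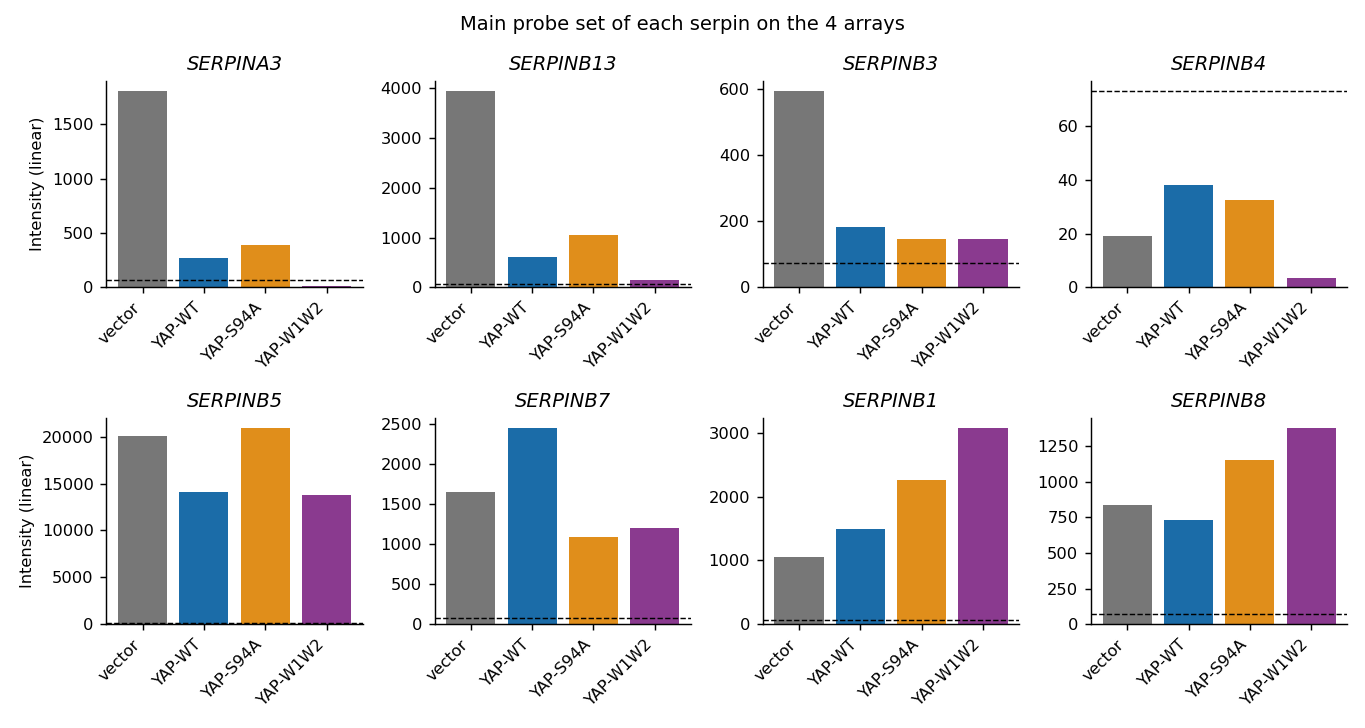
Intensity (linear axis from 0) of the main probe set of each of 8 serpins on the vector array and the YAP-WT, YAP-S94A and YAP-W1W2 arrays, 1 bar per array and no error bars because there is 1 array per group. The dashed line is the floor of 72.9. SERPINA3, SERPINB13 and SERPINB3 are tallest in vector, SERPINB7 in YAP-WT and SERPINB1 and SERPINB8 in YAP-W1W2, and SERPINB4 lies below the floor on all 4 arrays.

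SERPINB13 and SERPINB3 lie in the same run of genes and were lower together, and SERPINA3 was lower with them from another chromosome. SERPINB4 was below the floor on all arrays and is included as the near-copy of SERPINB3. The stretches just before the RefSeq start sites of these 4 genes are shown here. Each is the 250 bases before the start in GRCh38.p14, written 5′ to 3′ on the gene's strand, with SERPINB13 at chr18:63587093-63587342 (plus strand), SERPINA3 at chr14:94612141-94612390 (plus), SERPINB3 at chr18:63661894-63662143 (minus) and SERPINB4 at chr18:63644257-63644506 (minus). Capitals mark a match on either strand to GGAATG (the TEAD motif) or TGANTCA (AP-1). The palindromic letters TTCNNNGAA (STAT) and the NF-kB motif were searched too and are in none of these 4.
SERPINB13: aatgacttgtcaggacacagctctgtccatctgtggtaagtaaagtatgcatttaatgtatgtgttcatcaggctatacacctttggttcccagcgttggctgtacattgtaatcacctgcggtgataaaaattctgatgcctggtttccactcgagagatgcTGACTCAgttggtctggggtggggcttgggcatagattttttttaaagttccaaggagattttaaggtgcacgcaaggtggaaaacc
SERPINA3: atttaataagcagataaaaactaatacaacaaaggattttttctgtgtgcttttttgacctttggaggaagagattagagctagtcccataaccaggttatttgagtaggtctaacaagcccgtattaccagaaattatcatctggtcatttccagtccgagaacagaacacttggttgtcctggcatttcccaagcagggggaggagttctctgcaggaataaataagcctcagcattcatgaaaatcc
SERPINB3: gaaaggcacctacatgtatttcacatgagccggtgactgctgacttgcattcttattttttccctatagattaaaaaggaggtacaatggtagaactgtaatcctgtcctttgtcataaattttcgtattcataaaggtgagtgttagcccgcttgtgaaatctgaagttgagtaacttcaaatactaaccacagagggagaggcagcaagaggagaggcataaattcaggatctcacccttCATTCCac
SERPINB4: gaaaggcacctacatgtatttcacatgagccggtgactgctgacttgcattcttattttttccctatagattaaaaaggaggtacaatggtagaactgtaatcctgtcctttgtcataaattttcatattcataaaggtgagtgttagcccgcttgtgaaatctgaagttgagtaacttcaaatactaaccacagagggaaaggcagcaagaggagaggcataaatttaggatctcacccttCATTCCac

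The SERPINB13 stretch holds TGACTCA, 87 to 81 bases before the start. The SERPINA3 stretch holds none of the 4 motifs. SERPINB3 and SERPINB4 both hold CATTCC, the reverse complement of the TEAD letters, 8 to 3 bases before the start. The 2 stretches are 98.8% identical and differ at 3 of 250 positions, G126A, G201A and C228T, counted from the first base printed with the SERPINB3 base first. The next most alike pair of members, SERPINB2 and SERPINB3, is 55.1% identical over an alignment with gaps.

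Over all 11 RefSeq stretches of the 9 genes (SERPINB7 has several starts), TGANTCA was in 6, belonging to SERPINB2, SERPINB5, SERPINB7, SERPINB8 and SERPINB13. It was in 6.57% of all 35116 stretches of this length. The TEAD letters were in 2 of the 11 and in 11.9% of all, the STAT letters in 3 and in 6.57%, and the NF-kB motif in 0 and in 0.387%. These are matches of letters in a short window and say nothing of binding. Genes with TGANTCA include the lower SERPINB13, the highest-in-YAP-WT SERPINB7 and SERPINB5 and SERPINB8, which stayed within 2-fold of vector.

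SERPINA3, alpha-1-antichymotrypsin, is a secreted inhibitor of cathepsin G and mast cell chymase. Its 1 probe set read 1806.9 in vector, 272.9 in YAP-WT, then 389.4 in YAP-S94A and 15.1 in YAP-W1W2. Vector was the highest array and YAP-W1W2 lay below the floor. SERPINA3 was 6.62-fold lower in YAP-WT than in vector, 4.64-fold lower in YAP-S94A and at least 24.8-fold lower in YAP-W1W2. Of the measured genes, at least 18 (0.141%) and 121 (0.948%) were as low or lower in YAP-WT and YAP-S94A, SERPINA3 included. These are least counts, because genes at the floor enter at their bound. In YAP-W1W2 SERPINA3 has no exact place, because its value is a bound set by the floor.

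SERPINB13, also called headpin or hurpin, is a keratinocyte serpin that inhibits the cysteine proteases cathepsin K and cathepsin L. Its main probe set read 3937.1 in vector, 602.8 in YAP-WT, then 1051.0 in YAP-S94A and 145.9 in YAP-W1W2. The order of the arrays was the same as for SERPINA3, with vector highest, then YAP-S94A, YAP-WT and YAP-W1W2. It was 6.53-fold lower than vector in YAP-WT, 3.75-fold lower in YAP-S94A and 27.0-fold lower in YAP-W1W2. In YAP-W1W2 at least 6 measured genes (0.047%), SERPINB13 included, were as low or lower against vector. Genes below the floor there, such as SERPINA3, were counted at their bound and may lie lower, so SERPINB13 has no exact place either.

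SERPINB13 has 6 probe sets, and the 4 brighter ones ran alike. The second read 2044.8 in vector, 166.6 in YAP-WT, then 455.9 in YAP-S94A and 29.5 in YAP-W1W2. The third read 1363.1, 216.5, 400.7 and 158.0 on these arrays in turn, and the fourth 1052.8, 124.1, 262.1 and 73.2. Over these 4 the log2 difference from vector ran from −3.62 to −2.65 in YAP-WT, from −2.17 to −1.77 in YAP-S94A and from −4.81 to −3.11 in YAP-W1W2, the lowest value being a bound. The depth of the YAP-W1W2 decrease therefore depended on the probe set, from 8.63-fold to at least 28.0-fold. The other 2 were dim: 1 was below the floor on all arrays, and 1 read 69.7, 80.3, 62.4 and 119.5, highest in YAP-W1W2.

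SERPINB3, squamous cell carcinoma antigen 1, inhibits cathepsins S, K and L. Its main probe set read 594.2 in vector, 184.1 in YAP-WT, then 145.7 in YAP-S94A and 146.1 in YAP-W1W2. Here the YAP arrays lay close together, 3.23-fold, 4.08-fold and 4.07-fold below vector. The other probe set read 282.9 in vector and 2.8 to 31.6 in the YAP arrays, all below the floor, which gives at least 3.88-fold. This probe set and the main one put vector highest.

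SERPINB4, squamous cell carcinoma antigen 2, is the neighbour and near-copy of SERPINB3 and inhibits cathepsin G and chymase. Its 1 probe set read 19.0, 37.9, 32.3 and 3.5 in vector and then with YAP-WT, YAP-S94A and YAP-W1W2. All 4 values were below the floor, so no fold is given and no order can be read. A probe set annotated to both genes read 312.0, 146.3, 216.2 and 134.0, highest in vector. It was 2.13-fold lower in YAP-WT, 1.44-fold in YAP-S94A and 2.33-fold in YAP-W1W2. It thus stayed under 2-fold in YAP-S94A, where the main SERPINB3 probe set was lowest. Probes may bind transcripts of both genes, so the share of each in the SERPINB3 values is uncertain.

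**Figure D2:**
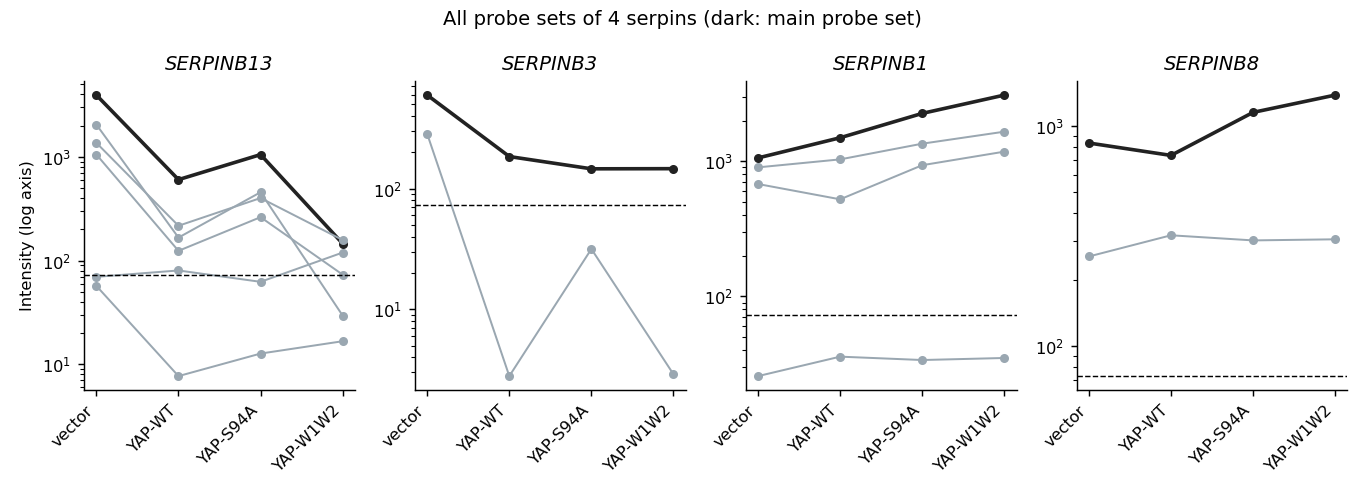
Intensity (log axis) of every probe set of SERPINB13, SERPINB3, SERPINB1 and SERPINB8 on the 4 arrays; each line joins 1 probe set, the dark line is the main one and the dashed line is the floor of 72.9. The 4 brighter SERPINB13 lines drop together from vector, and the 3 SERPINB1 lines above the floor are all highest in YAP-W1W2.

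Some marker values are set beside the 3 lower serpins here, and only CD14 among them was highest in vector. Of the other listed markers, KDR, PGR and PDGFRB, all outside the measured genes, were highest in vector too, and the rest were not. KDR, an endothelial marker, read 201.2 in vector, 148.0 in YAP-WT, then 28.5 in YAP-S94A and 33.0 in YAP-W1W2. CD14, a monocyte marker that belongs to the leukocyte list, read 311.9 in vector, 61.7 in YAP-WT, then 143.9 in YAP-S94A and 19.3 in YAP-W1W2. It was highest in vector, as SERPINA3 and SERPINB13 were, and below the floor in YAP-WT and YAP-W1W2. The other 3 leukocyte markers with a probe set were not highest in vector. The T cell gene CD3E read 20.3, 256.1, 52.7 and 49.9, above the floor in YAP-WT alone, PTPRC 64.8, 74.6, 21.7 and 56.3, and the lysozyme gene LYZ 56.5, 53.4, 15.3 and 98.1, above the floor in YAP-W1W2 alone. The simple epithelial keratin KRT18 went the other way, at 5608.9 in vector and 16989.6 to 34605.0 in the YAP arrays. The part of these in the serpin values was not tested.

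SERPINB1, the leukocyte elastase inhibitor, blocks neutrophil elastase, proteinase 3 and cathepsin G. Its main probe set read 1057.3 in vector, 1491.1 in YAP-WT, then 2257.5 in YAP-S94A and 3084.4 in YAP-W1W2. Both mutants lay above YAP-WT and vector, with YAP-W1W2 highest. SERPINB1 was 2.14-fold higher than vector in YAP-S94A and 2.92-fold higher in YAP-W1W2, while at least 8.5% and 4.3% of measured genes were as high or higher. It stood at 1.41-fold in YAP-WT.

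The other SERPINB1 probe sets gave smaller values. The second read 900.3, 1031.4, 1347.8 and 1653.4 in vector and then with YAP-WT, YAP-S94A and YAP-W1W2, and the third 677.8, 522.3, 934.1 and 1176.7. Over the 3 probe sets above the floor, the log2 difference from vector ran from −0.38 to 0.50 in YAP-WT, from 0.46 to 1.09 in YAP-S94A and from 0.80 to 1.54 in YAP-W1W2. Against vector, the main probe set alone passed 2-fold in YAP-W1W2 and YAP-S94A. The bacterial hybridization controls ran the opposite way over the arrays, with bioB below vector by log2 values of −0.47 in YAP-WT, then −0.83 in YAP-S94A and −1.28 in YAP-W1W2. The actin 3′ to 5′ ratio ran down over the arrays in that order too, from 1.16 in vector to 0.964 in YAP-W1W2. The cre control stood at 0.02, −0.20 and −0.51 (log2) from vector, so it did not fall in YAP-WT. SERPINA3, SERPINB13 and SERPINB3 lay below vector in every YAP array, on the same side as bioB. The part of the controls or of the actin ratio in the values of SERPINB1 or of these 3 serpins was not tested.

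SERPINB8 inhibits the proprotein convertase furin. Its main probe set read 836.1 in vector, 734.4 in YAP-WT, then 1152.1 in YAP-S94A and 1380.9 in YAP-W1W2. The mutants were again the higher arrays, at 1.38-fold and 1.65-fold of vector, both under 2-fold. The other probe set read 255.0 in vector and 301.7 to 318.3 in the YAP arrays, and was highest in YAP-WT.

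SERPINB5, maspin, is a serpin that does not inhibit proteases and marks mammary myoepithelial cells. It read 20120.6 in vector, 14076.6 in YAP-WT, then 20970.1 in YAP-S94A and 13730.4 in YAP-W1W2 by its main probe set. Vector and YAP-S94A were close, and YAP-WT and YAP-W1W2 were close below them, at 1.43-fold and 1.47-fold under vector. None of these differences reached 2-fold. A dim second probe set read 82.5, 28.3, 219.4 and 44.0, highest in YAP-S94A at 2.66-fold above vector and below the floor in YAP-WT and YAP-W1W2.

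SERPINB7, megsin, is made in the upper epidermis, and its loss causes a palmoplantar skin thickening. Its 1 probe set read 1651.8 in vector, 2456.9 in YAP-WT, then 1093.6 in YAP-S94A and 1205.8 in YAP-W1W2. YAP-WT was the highest array and both mutants were below vector, at log2 differences of 0.57, −0.60 and −0.45. No other member was highest in YAP-WT by its main probe set among those above the floor.

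The mutants were then set against YAP-WT, to see which serpins differ with the TEAD-binding change or the WW domains; these 2 comparisons share the YAP-WT array. In YAP-S94A, 1 of the 7 measured members was at least 2-fold lower than in YAP-WT, where 6.27% of measured genes were, and 0 were higher, where 5.06% were. With 7 members, a count of 1 is near the background. The lower one was SERPINB7, at 2.25-fold. SERPINB13 stood 1.74-fold and SERPINA3 1.43-fold above YAP-WT, both short of 2-fold. Over the 4 brighter SERPINB13 probe sets, the log2 difference ran from 0.80 to 1.45.

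In YAP-W1W2, 3 members were lower than in YAP-WT (background 5.59%) and 1, again a count near the background, was higher (3.91%). SERPINB13 was 4.13-fold lower and SERPINA3 at least 3.74-fold lower. By the other 3 bright probe sets SERPINB13 was 1.37-fold, 1.70-fold and at least 2.28-fold lower. SERPINB7 was 2.04-fold lower, and SERPINB1 2.07-fold higher. By its other probe sets above the floor SERPINB1 was 1.60-fold and 2.25-fold higher. The count of 3 was 2 with quantile normalization, where SERPINB7 came to −0.94 (log2), and 2 with a floor at the 60th percentile, where SERPINA3 came to −0.59. It was also 2 with the mean over probe sets, where SERPINB13 came to −0.65, and with probe sets lacking an _s_at or _x_at ending. SERPINB3 differed from YAP-WT by 1.26-fold in either mutant, lower in both. The median of the 7 measured members was 0.57 (log2) in YAP-S94A and −0.33 in YAP-W1W2 against YAP-WT, where all measured genes had 0.01 and −0.04.

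Between the mutants, 2 members were at least 2-fold lower in YAP-W1W2 than in YAP-S94A (background 4.45%) and 0 were higher (4.98%). SERPINB13 was 7.20-fold lower, and at least 17 measured genes (0.133%) were as low or lower. By its other bright probe sets it was 2.54-fold, 3.58-fold and at least 6.25-fold lower. SERPINA3 was at least 5.34-fold lower. SERPINB5 was 1.53-fold lower, and SERPINB3 differed by a log2 value of 0.00. The members' median was 0.00, beside −0.07 for all measured genes.

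**Figure D3:**
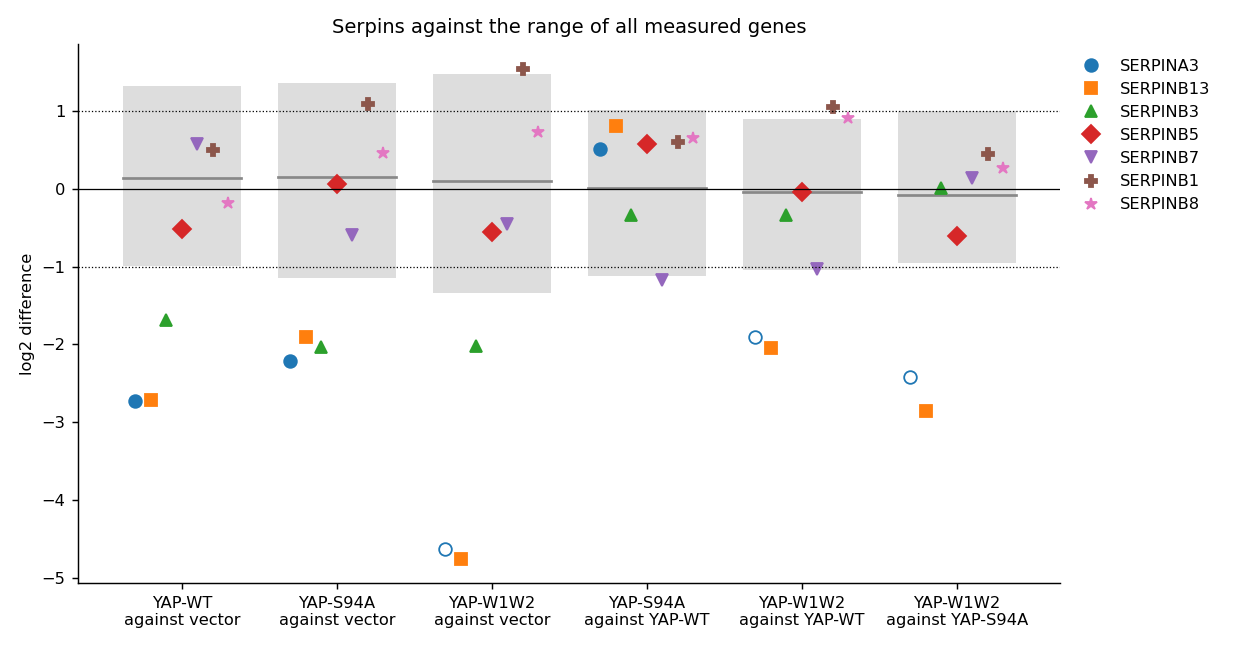
log2 difference of 7 serpins in 6 comparisons, by the main probe set; open symbols are bounds with 1 side at the floor. Grey boxes span the 5th to 95th percentile of all 12759 measured genes with a line at their median, and dotted lines mark 2-fold. SERPINA3 and SERPINB13 lie furthest below the boxes in YAP-W1W2 against vector, at −4.63 (a bound) and −4.75.

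Along the chromosome 18 run the genes did not share 1 pattern. In RefSeq order it reads SERPINB5, SERPINB12, SERPINB13, SERPINB4, SERPINB3, SERPINB11, SERPINB7, SERPINB2, SERPINB10 and SERPINB8, with VPS4B before it, CDH7 after it and HMSD between SERPINB10 and SERPINB8. SERPINB13, lower in every YAP array, stands beside SERPINB12, which read 90.7 in vector, 65.0 in YAP-WT, then 203.6 in YAP-S94A and 177.0 in YAP-W1W2. SERPINB12 was 2.25-fold higher than vector in YAP-S94A. SERPINB10 read 51.1 and 44.4 in vector and YAP-WT, below the floor, and 218.2 and 208.4 in the mutants, at least 2.99-fold and 2.86-fold above vector. Both are dim and have 1 probe set each. VPS4B, outside the run, stood at log2 differences of −0.29, −0.34 and −0.26 from vector with YAP-WT, YAP-S94A and YAP-W1W2.

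**Figure D4:**
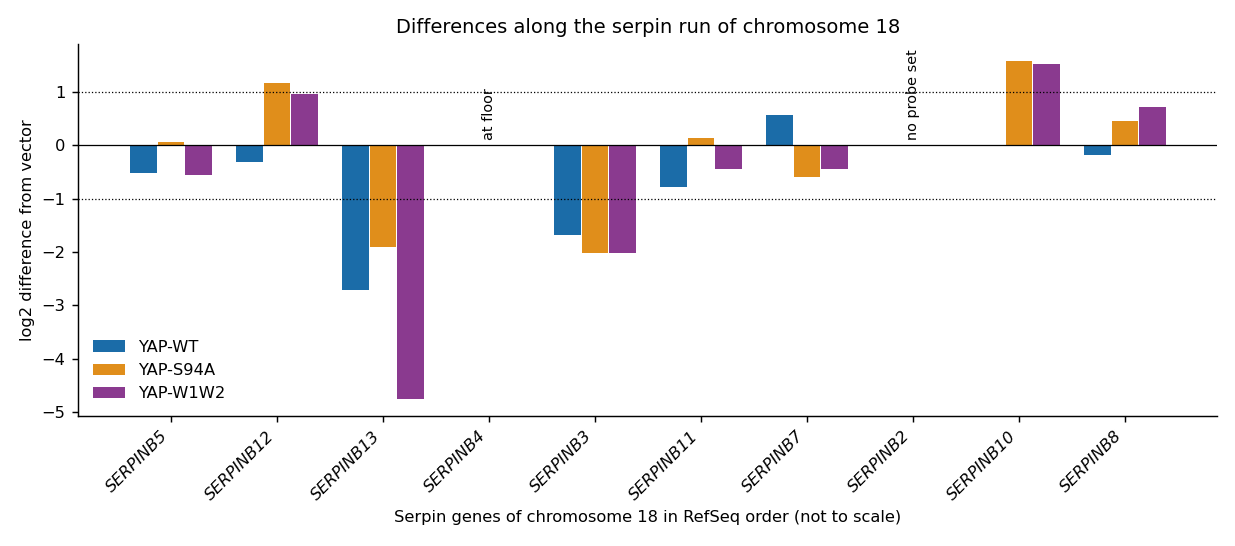
log2 difference from vector of the 10 serpin genes of chromosome 18 in RefSeq order (not to scale), 1 bar for each of YAP-WT, YAP-S94A and YAP-W1W2, with dotted lines at 2-fold. SERPINB13 and SERPINB3 point down in all 3 arrays while SERPINB12, SERPINB10 and SERPINB8 point up in both mutants; bars of SERPINB10, and those of SERPINB12 and SERPINB11 in YAP-WT, are bounds. SERPINB4 was at the floor, and SERPINB2 had no probe set to show.

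Of 24 other serpins listed, 20 had a probe set and 9 were measured. Of these 9, 2 were higher and 1 lower in YAP-WT than in vector (9.11% and 4.95% of all measured genes), 4 higher and 2 lower in YAP-S94A (10.3% and 6.53%), and 3 higher and 0 lower in YAP-W1W2 (11.4% and 8.4%). SERPINB10 and SERPINB12 are among the 4 higher in YAP-S94A, and SERPINB10 is among the 3 higher in YAP-W1W2. Both genes read below the limit of 113.6 in vector and YAP-WT and above it in the mutants. Their mean intensity thus reached that limit only through the mutant arrays, which favours counting them as higher there. The part of this limit in the counts was not tested. SERPINE2, protease nexin 1, is a secreted inhibitor of thrombin and urokinase. By the main of its 2 probe sets SERPINE2 read 199.6 in vector, 1561.7 in YAP-WT, then 629.4 in YAP-S94A and 2067.9 in YAP-W1W2. It was thus highest where SERPINB13 and SERPINA3 were lowest, at 10.4-fold above vector in YAP-W1W2. SERPINH1, the collagen chaperone HSP47, read 507.6, 2492.8, 1612.5 and 3231.0 on these arrays in turn. SERPINE2 and SERPINH1 thus lay above vector in all 3 YAP arrays, on the other side from SERPINA3, SERPINB13 and SERPINB3.

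Among 13 proteases that the member serpins are known to bind, 9 were measured. In YAP-WT 1 was at least 2-fold higher than vector (9.11% of all measured genes) and 0 lower (4.95%), in YAP-S94A 0 higher (10.3%) and 1 lower (6.53%), and in YAP-W1W2 0 higher (11.4%) and 3 lower (8.4%). With 9 genes, a count of 1 is near the background. The higher one in YAP-WT was KLK3, prostate-specific antigen, at 2.15-fold by the main of its 3 probe sets. That probe set has an _x_at ending, and whether it binds other transcripts was not tested. Urokinase (PLAU), a target of SERPINB2, read 459.0 in vector, 240.5 in YAP-WT, then 627.6 in YAP-S94A and 119.5 in YAP-W1W2, lowest in YAP-W1W2 at 3.84-fold below vector. The tissue plasminogen activator PLAT, another SERPINB2 target, read 814.1, 738.3, 899.9 and 322.3 and was 2.53-fold lower there. Cathepsin S (CTSS), a SERPINB3 target, read 192.1, 120.7, 195.6 and 40.1 and was at least 2.63-fold lower there. Cathepsin L (CTSL) read 1717.5 to 2111.0 and cathepsin V (CTSV) 680.4 to 1007.7, within 2-fold in every comparison. Cathepsin K (CTSK) read 532.2, 489.5, 221.2 and 313.7 and was 2.41-fold lower in YAP-S94A. Of the neutrophil and mast cell targets of SERPINB1 and SERPINA3, ELANE, PRTN3 and CMA1 were not measured, with means of 14.5 to 60.2. Cathepsin G (CTSG), a target of both, was dim but measured, at 103.0, 83.9, 186.4 and 130.8, and was 2.22-fold higher in YAP-S94A than in YAP-WT. The urokinase receptor PLAUR read 797.9, 509.2, 3115.8 and 1122.2, and was 3.90-fold higher in YAP-S94A.

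SERPINA3 is an acute phase gene, and 6 of 14 such genes were measured. Of them, 3 were lower and 1 higher than vector in YAP-WT (4.95% and 9.11% of all measured genes). In YAP-S94A 2 were lower and 1 higher (6.53% and 10.3%), as in YAP-W1W2 (8.4% and 11.4%). Complement C3 read 12984.1 in vector and 3825.6 to 5038.0 in the YAP arrays, and complement factor B (CFB) 836.1 and 241.9 to 328.6. Lipocalin 2 (LCN2) read 454.2, 223.4, 450.8 and 250.3, 2.03-fold lower in YAP-WT. LBP, which binds bacterial lipopolysaccharide, went the other way, at 84.1 in vector and 171.6 to 223.2 in the YAP arrays.

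Genes with the most similar profile were sought for members above the floor on all arrays that spanned at least 4-fold, which were SERPINB3 and SERPINB13. Likeness was the Euclidean distance between log2 values centred over the 4 arrays, among 11887 genes. For SERPINB13 the nearest were the elongation factor gene ELL3 (distance 0.746), the cornified envelope gene SPRR1B (0.827) and the chloride channel regulator CLCA2 (0.889). SPRR1B read 7996.2 in vector, 1169.2 in YAP-WT, then 4024.0 in YAP-S94A and 286.6 in YAP-W1W2. For SERPINB3 they were TNFAIP2 (0.249), the actin regulator MTSS1 (0.313) and the small heat shock gene CRYAB (0.324). TNFAIP2 read 853.9 in vector and 228.3 to 241.0 in the YAP arrays. With 4 arrays such likeness is a description of these profiles only.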

How the data were processed

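Total RNA of 4 cultures was measured, 1 array each. The deposited values are linear array intensities per probe set. Per the submitters' processing notes the software was GCOS; for its version and scaling the sources used here give nothing. Biotin-labelled cRNA was made from Trizol extracts, per the labels' protocols. Values were used as deposited, since the 2% trimmed means differed by a ratio of 1.098. Of 54675 probe sets 62 controls were set aside. Names came from the platform annotation: 41091 probe sets had 1 symbol, 1801 several and 11721 none here. Promoter sequences and gene order are RefSeq's (GRCh38.p14), and all 9 members matched. A gene is its brightest single-symbol probe set. Apart from YAP1, genes that are not members are given by that probe set alone. Some of them, such as SERPINE2, PLAU, PLAUR, CTSS, CFB and LBP, have further probe sets whose values are not given. Intensities were raised to the floor and log2 was taken, with Python 3.11.15, pandas 2.3.3 and Biopython 1.88. The number of arrays limits the precision. By rule, all members and the 3 nearest profiles are named, and list genes may be named where measured and at least 2-fold different in a comparison; not all of those are. Other list genes and VPS4B are named outside the rule, after their values were seen. Members and lists were chosen with earlier results of these data known. Alternatives were 2 scalings, 2 floors and 2 probe set choices. Without replicates, no test, standard error or p-value was computed.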

Additional observations from a re-analysis of the deposited data

How the results depend on the processing

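Of 72 counts of members past 2-fold under the 6 alternatives, 65 stayed within 1.5 times the value reported and 7 did not. With quantile normalization, the count higher in YAP-S94A than in vector was 0 and that higher in YAP-W1W2 than in YAP-WT was 2, because SERPINB1 came to 0.96 (log2) and SERPINB8 to 1.01. With the mean over probe sets, the count higher was 0 in YAP-S94A against vector, 0 in YAP-W1W2 against vector, 1 in YAP-S94A against YAP-WT and 0 in YAP-W1W2 against YAP-WT. There SERPINB1 came to 0.53, 0.80 and 0.73 against vector in YAP-S94A, against vector in YAP-W1W2 and against YAP-WT in YAP-W1W2, and SERPINB5 to 1.08 in YAP-S94A against YAP-WT; both means include a dim probe set. With probe sets lacking an _s_at or _x_at ending, the count lower in YAP-W1W2 than in YAP-S94A was 1. The count lower than vector was then 2, not 3, in each YAP array, which is within 1.5 times and so among the 65. This choice leaves SERPINB13 with its 2 dim probe sets, of which the brighter stands for it, and turns its direction, to 0.14 in YAP-WT and 0.71 in YAP-W1W2 against vector, 0.57 in YAP-W1W2 against YAP-WT and 0.71 against YAP-S94A. In YAP-S94A against vector that probe set was at the floor on both arrays, so it gave no difference and is not among the 250 below. Of 250 single-member differences under the alternatives, 225 kept their side of 2-fold and moved by at most 1.5 times, 21 moved and 4 reversed. Many of the 225 could not move. SERPINA3 and SERPINB7 have 1 probe set each, so the mean over probe sets left them unchanged. The choice by ending kept the main probe set of every measured member but SERPINB13, and SERPINB3 and SERPINB7 have no probe set without such an ending. The bound of SERPINA3 in YAP-W1W2 against vector followed the floor, from −3.32 (60th percentile) to −6.25 (20th percentile), and against YAP-WT it was −0.59 with the higher floor. The median measured gene lay 0.14, 0.15 and 0.10 (log2) above vector with YAP-WT, YAP-S94A and YAP-W1W2. Relative to it, SERPINB1 was 0.95 higher in YAP-S94A and no longer past 2-fold, and SERPINB7 0.98 lower in YAP-W1W2 than in YAP-WT. No paired analysis was possible because each group has 1 array.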

Other observations

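SERPINF1, the secreted, antiangiogenic pigment epithelium-derived factor, was outside the measured genes and is named after its values were seen. It read 293.2 in vector and 21.7 to 39.7 in the YAP arrays, all below the floor, so it was at least 4.02-fold lower in each. The clade A serpin SERPINA12 read 239.2 in vector, 93.1 in YAP-WT, then 95.2 in YAP-S94A and 198.3 in YAP-W1W2, lower in YAP-WT and YAP-S94A by 2.57-fold and 2.51-fold. SERPINA5, the inhibitor of activated protein C, is the gene before SERPINA3 in the RefSeq order of protein-coding genes on chromosome 14. It read 105.7 in vector and 15.8 to 37.1 in the YAP arrays, all below the floor, so it was at least 1.45-fold lower in each. SERPINA5 was outside the measured genes and is also named after its values were seen.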
